A study of Mus musculus with 8 samples.

Results

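Broad H4K12la domains of microglia are places where lactylation of histone H4 at lysine 12 (H4K12la) was listed as 1 unbroken peak of at least 3000 bp. They were chosen by the measured peak widths themselves: every peak of 3000 bp or wider in any of the 4 microglia lists was taken, and such peaks that overlapped by 1 base or more were merged. This gave 133 domains from 196 broad peaks, out of 49161 regions obtained by merging all microglia peaks of any width. The remaining 49028 regions held no broad peak and are called narrower regions here. Since widths in microglia selected the domains, everything below about microglia peaks at these places is a description without a test, and tests were made only in the total cell libraries and on gene positions, which the selection did not use.

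The libraries came from mouse brain without cerebellum and were made by CUT&Tag, in which an antibody guides a transposase to marked chromatin. The genotypes were wild type (WT) and 5XFAD, whose mice carry mutated human transgenes of familial Alzheimer disease driven by a mouse Thy1 promoter, so that the transgenes are expressed mainly in neurons. From each genotype there were 2 libraries of all dissociated brain cells (total cells), a mixture that still contains microglia, and 2 libraries of microglia, the macrophages resident in brain, taken with beads against CD11b, a surface protein that other myeloid cells share. The 8 libraries thus form 4 groups of 2, named here by group and replicate number (WT 1, WT 2, 5XFAD 1 and 5XFAD 2). The labels give no age or sex, and nothing in them says whether replicates came from separate animals, so the spread between replicates may be technical.

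Lactylation is an acyl mark on lysine that draws on lactate, the end product of glycolysis, and on histones it is associated with active genes. Marks of this kind usually form narrow peaks at promoters and enhancers, while wide unbroken stretches are known for other active marks at genes that define a cell's identity. Microglia depend on the transcription factor PU.1, which binds DNA with an ETS family core, and in disease they switch on lysosomal and lipid-handling genes.

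Of the domains, 20 held the listed transcription start of a protein-coding gene. The sequence upstream of the start is printed for 5 of these, as examples of promoters in broad H4K12la domains. They are those among the 12 widest domains, broad in all 4 microglia libraries or among the 5 most covered in total cells. Tnfrsf14 met only the last of these. At Olfml3 only the broad peak of microglia 5XFAD 2 reached the printed run, and no other library listed a peak over it. Each run is the 250 bases before the start, 5′ to 3′ on the strand of the gene, from RefSeq (GRCm38.p6). Capitals mark the ETS family core AGGAAG or its reverse complement CTTCCT, which can share an end base with TATAAA or TGACTCA and no more with any motif searched. The runs are those of Ctsz at chr2:174439040-174439289, minus strand; Olfml3 at chr3:103738002-103738251, minus strand; Tnfrsf14 at chr4:154928078-154928327, minus strand; Il18bp at chr7:102018233-102018482, minus strand; and Synj2 at chr17:5975330-5975579, plus strand.
Ctsz: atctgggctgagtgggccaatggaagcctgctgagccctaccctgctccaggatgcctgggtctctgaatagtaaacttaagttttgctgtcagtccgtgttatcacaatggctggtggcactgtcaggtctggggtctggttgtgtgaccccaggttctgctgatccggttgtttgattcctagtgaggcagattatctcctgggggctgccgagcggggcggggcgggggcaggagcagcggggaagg
Olfml3: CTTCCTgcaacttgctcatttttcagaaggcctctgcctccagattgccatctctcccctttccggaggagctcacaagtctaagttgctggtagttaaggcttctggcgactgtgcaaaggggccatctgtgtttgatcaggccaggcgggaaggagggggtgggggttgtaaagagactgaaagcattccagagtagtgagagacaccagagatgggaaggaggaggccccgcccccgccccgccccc
Tnfrsf14: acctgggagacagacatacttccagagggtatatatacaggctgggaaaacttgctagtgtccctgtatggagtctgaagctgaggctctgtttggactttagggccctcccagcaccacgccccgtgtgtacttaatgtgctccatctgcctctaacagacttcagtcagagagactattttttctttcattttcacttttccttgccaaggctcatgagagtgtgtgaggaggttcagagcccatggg
Il18bp: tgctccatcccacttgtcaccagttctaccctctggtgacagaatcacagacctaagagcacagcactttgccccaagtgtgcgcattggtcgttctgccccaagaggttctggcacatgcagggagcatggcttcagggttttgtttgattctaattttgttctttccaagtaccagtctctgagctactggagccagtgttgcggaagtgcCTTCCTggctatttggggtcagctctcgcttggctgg
Synj2: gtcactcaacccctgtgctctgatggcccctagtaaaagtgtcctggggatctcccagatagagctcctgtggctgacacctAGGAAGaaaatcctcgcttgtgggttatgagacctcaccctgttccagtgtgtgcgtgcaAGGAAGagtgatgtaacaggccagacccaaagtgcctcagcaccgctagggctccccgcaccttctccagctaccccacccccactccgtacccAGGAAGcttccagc

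The Synj2 promoter held AGGAAG 3 times, Olfml3 and Il18bp once each, and Ctsz and Tnfrsf14 held none. Over the 24 listed starts of these 20 genes, 9 (37.5%) had the core in the 250 bases on either strand, against 28.5% of 21262 listed starts of coding genes. The AP-1 site TGACTCA was found at 2 (8.33%) against 4.06%, TATAAA at 3 (12.5%) against 11.6%, and CCAAT at 9 (37.5%) against 35.4%. The median CpG count was 5 against 10 for all starts, and 11 of the 24 (45.8%) had 4 or fewer CpG against 33.7%. GC content was similar, with a median of 57.2% against 55.6%. These are descriptions of 24 short windows, some of them overlapping, and a match is not evidence of binding.

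The domains were spread over all autosomes, and none lay on X or Y. Their span ran from 3002 to 5239 bp with a median of 3303 bp, and together they covered 454 kb. Only 12 domains held a peak of 4000 bp or more, 36 held no peak as wide as 3100 bp, and the median of the widest peak was 3275 bp. Just inside the limit were the domain near Clvs1 (3002 bp) and those in Rbm47 (3004 bp) and Zcchc24 (3005 bp). Just outside were regions at Cryba4 (2997 bp), Tbc1d22a (2995 bp) and Apc (2991 bp), so the limit divides a continuous range.

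**Figure D1:**
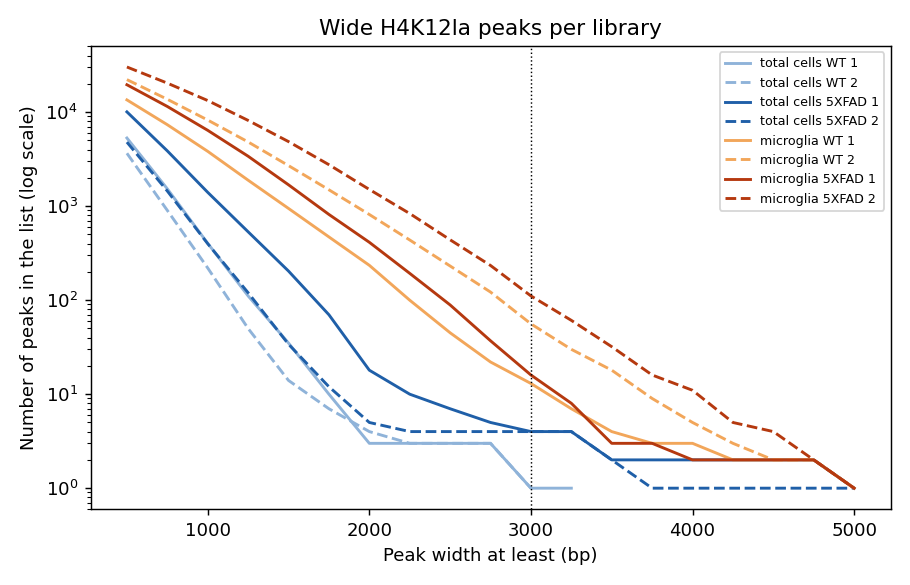
Number of peaks at least as wide as the value on the x axis (bp), for each of the 8 libraries, on a log scale; the dotted line marks 3000 bp. The 4 microglia libraries keep 13 to 111 peaks at the line and the 4 total cell libraries 1 to 4.

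The number of broad peaks differed between libraries of the same group more than between genotypes. The WT microglia lists held 13 (WT 1) and 56 (WT 2), and the 5XFAD microglia lists 16 (5XFAD 1) and 111 (5XFAD 2). These numbers followed the lengths of the lists, which were 22300, 33500, 29947 and 41783 peaks in the same order. Taking only the 22300 highest scores from every list still gave 132 domains, since broad peaks stood high in their lists: their median score percentile was 97.3, 94.7, 92.7 and 92.4. Leaving out 5XFAD 2 left 62 domains.

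Of the 133 domains, 92 were broad in a single microglia library, 26 in 2, 8 in 3 and 7 in all 4. In 71 the broad peak was in 5XFAD 2 alone and in 18 in WT 2 alone, and 112 had no broad peak in either WT 1 or 5XFAD 1. The other microglia libraries still marked these places: all 133 domains had a peak of some width in all 4 microglia lists, against 34.0% of the merged microglia regions. Wide peaks in these same lists chose the domains, and most merged regions are under 1000 bp wide, so these are not shares of like regions. Peaks covered 60.9% of domain bases in WT 1, 81.8% in WT 2, 71.4% in 5XFAD 1 and 96.1% in 5XFAD 2. Where a library had no broad peak it often listed several shorter ones, so that 71 domains in WT 1, 49 in WT 2, 78 in 5XFAD 1 and 10 in 5XFAD 2 were in 2 or more pieces.

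**Figure D2:**
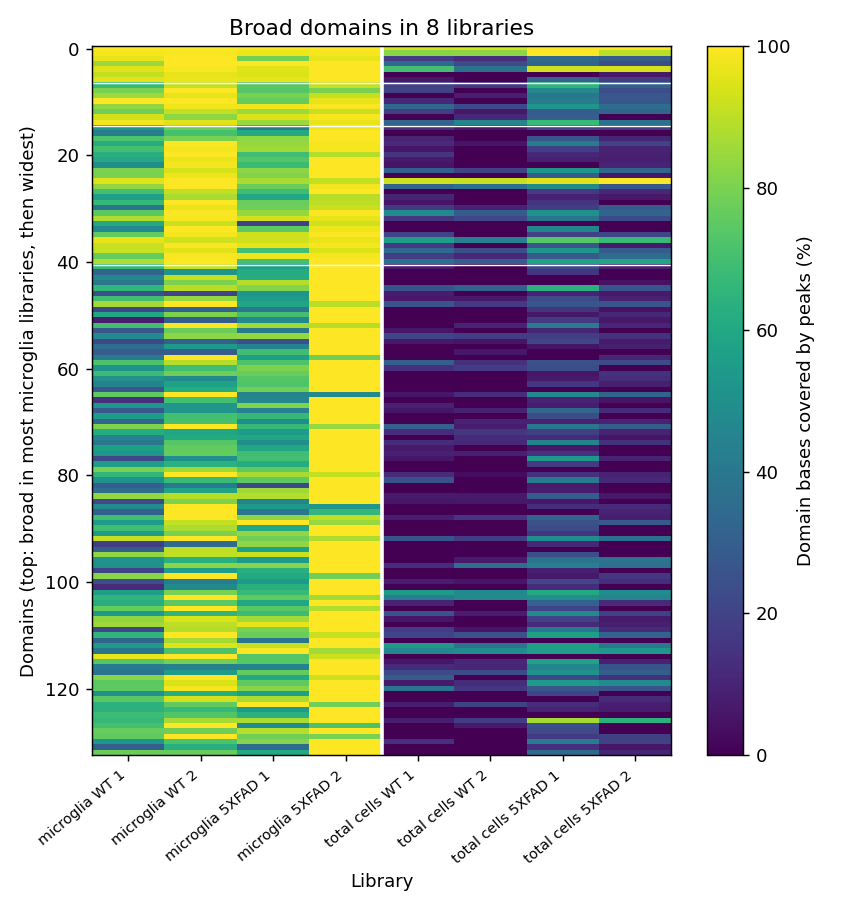
Share of the bases of each domain covered by peaks (colour, %), with 1 line of the map per domain and 1 column per library; domains broad in most microglia libraries are at the top, and thin white lines separate those broad in 4, 3, 2 and 1. The microglia columns are covered from 60.9% (WT 1) to 96.1% (5XFAD 2) of all domain bases, and the total cell columns from 10.6% to 28.2%.

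By genotype, coverage was higher in both 5XFAD than in both WT microglia libraries at 33 domains (background over all merged microglia regions 25.8%) and lower in both at 8 (background 4.83%), while it was higher in both replicates 2 than in both replicates 1 at 85. The background of that last count was 29.7%. The 8 domains more covered in both WT libraries were those at Nlrp1a, Trio, Itpr3, Polr1a, near Vxn, near Lrrc28, the 18S repeat and a stretch of mitochondrial DNA; they and other domains outside the naming rule in the processing account were picked out after their values were seen. Only the domain in Txndc11, which encodes a thioredoxin domain protein, was broad in both 5XFAD and neither WT library. Its widest microglia peaks were 2235 and 2585 bp in WT and 3415 and 4111 bp in 5XFAD. The 18S repeat was the only domain broad in both WT libraries and in no 5XFAD library. The widths chose these domains, and list length moved with them, so the part of genotype cannot be told apart from that of the lists.

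Of the 7 domains broad in all 4 microglia libraries, 2 lay in mitochondrial DNA and 5 in the nuclear genome. The widest nuclear one was inside Trio (gene 223435, chr15:27800283-27804664), which encodes a guanine nucleotide exchange factor for small GTPases. Its widest peaks were 4231 and 4382 bp in WT and 3462 and 4221 bp in 5XFAD microglia. It lay 223374 bp past the first listed start of the gene, deep inside the gene body. The 4 total cell libraries listed only shorter pieces there, with a widest peak of 536, 568, 822 and 792 bp (WT 1, WT 2, 5XFAD 1 and 5XFAD 2).

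The domain of Ctsz (gene 64138, chr2:174436214-174440208) was of a different kind, since it held the start of its gene. Ctsz encodes cathepsin Z, a lysosomal carboxypeptidase that belongs to the disease-associated programme of microglia. Its widest peaks were 3387 and 3990 bp in WT and 3990 and 3995 bp in 5XFAD microglia. The edges were almost the same in 3 libraries, and only WT 1 ended short on 1 side. In total cells the widest peaks there were 1361 and 553 bp in WT and 1277 and 709 bp in 5XFAD, so the genotypes overlapped.

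Parp14 (gene 547253, chr16:35869016-35872587) encodes an ADP-ribosyltransferase that is induced by interferon, and its domain spanned 1 end of the gene, which has no listed start. The microglia peaks were 3407 and 3533 bp in WT and 3394 and 3562 bp in 5XFAD. Outside the 18S repeat and mitochondrial DNA, this was the only place where total cells also had a broad peak. That was so in both 5XFAD libraries (3312 and 3345 bp) and in neither WT library (1386 and 705 bp). Coverage of the domain in total cells was 70.1% and 37.8% in WT and 92.7% and 93.7% in 5XFAD, with no overlap between genotypes.

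The 2 other nuclear domains broad in all 4 libraries differed in total cells. The domain in Mob3a (chr10:80692193-80695541), of the MOB family of kinase activators, had peaks of 3040 and 3226 bp in WT and 3176 and 3349 bp in 5XFAD microglia. The total cell lists held a single short peak there, of 229 bp in 5XFAD 2. The other (chr16:76406508-76409711) lay 32680 bp from Nrip1, which encodes a corepressor of nuclear receptors, with microglia peaks of 3070, 3108, 3090 and 3204 bp (WT 1, WT 2, 5XFAD 1 and 5XFAD 2). Total cells had a widest peak of 208 bp and no peak in WT, and of 524 and 560 bp in 5XFAD, and covered 6.49% and 0% of the domain in WT and 31.5% and 17.5% in 5XFAD.

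**Figure D3:**
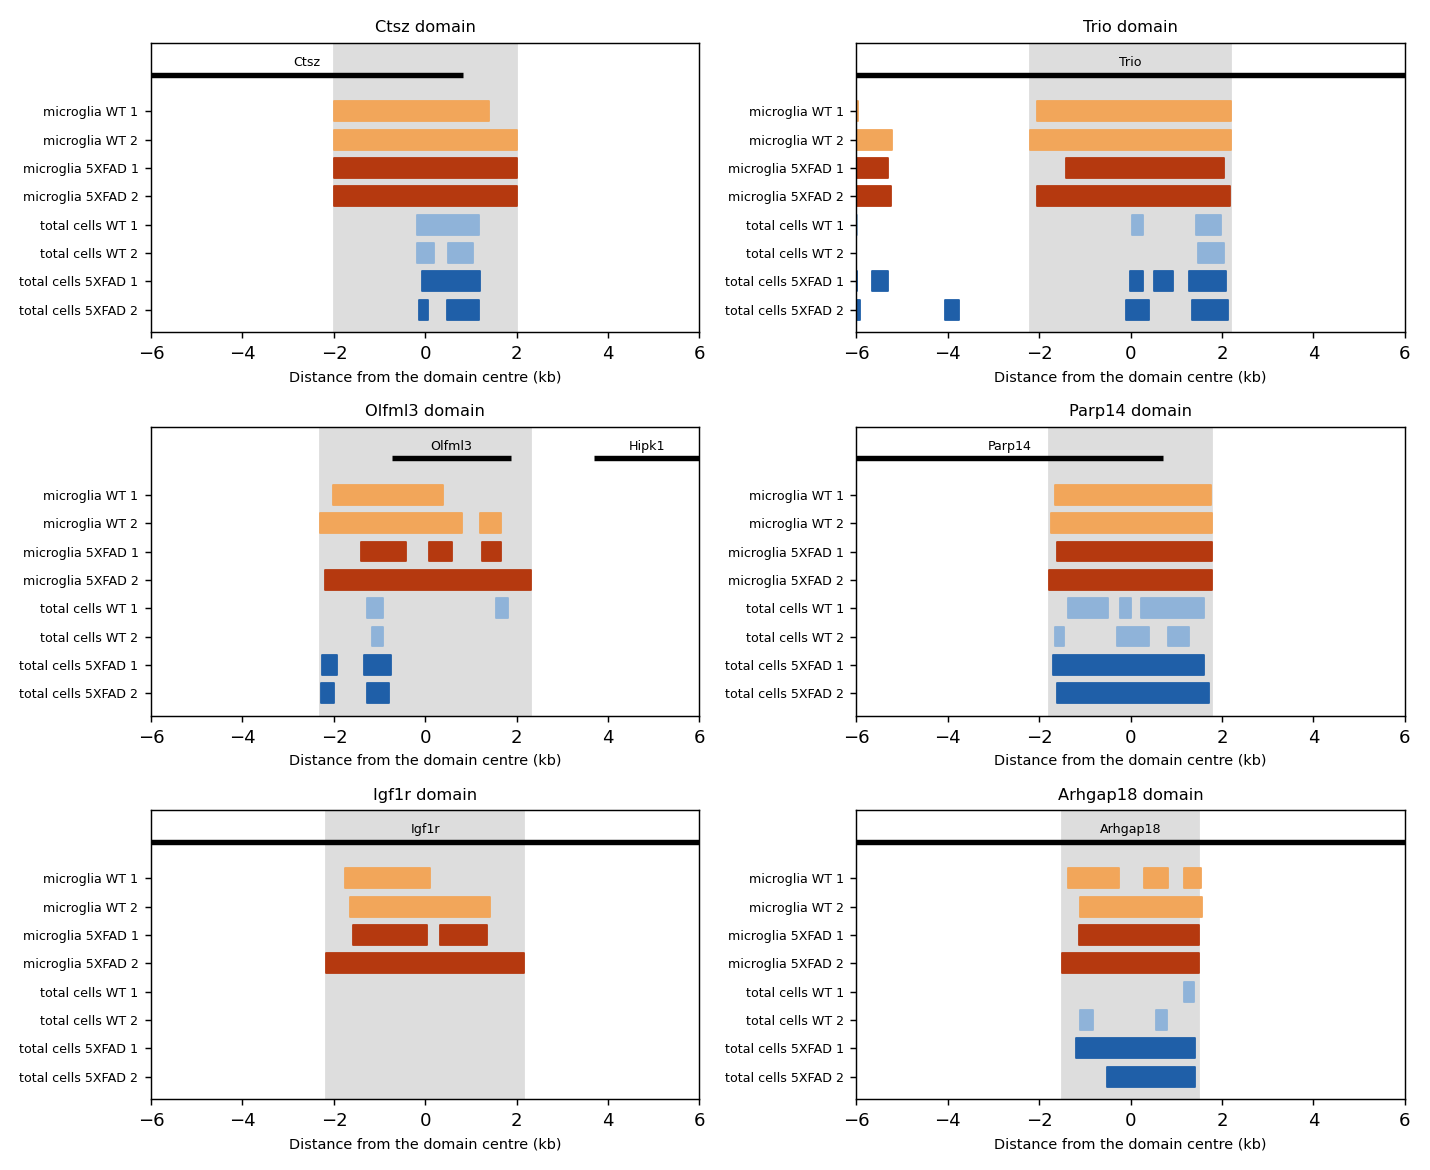
Peaks of the 8 libraries (coloured bars) around 6 domains (grey), by distance from the domain centre in kb; black bars are coding genes. The Ctsz, Trio and Parp14 domains are unbroken in all 4 microglia libraries, Olfml3 and Igf1r have their widest peak in 5XFAD 2 and shorter or broken peaks elsewhere, and at Parp14 and Arhgap18 the 5XFAD total cell peaks approach the microglia peaks in width.

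The widest nuclear domains were mostly broad in fewer libraries. Myo1d, an unconventional myosin gene, held the widest nuclear peak, 4547 bp in 5XFAD 2, against 1528 and 2314 bp in WT and 1964 bp in 5XFAD 1. Olfml3 (gene 99543, chr3:103733827-103738431), a secreted olfactomedin-like protein and microglia marker, had peaks of 2403 and 3108 bp in WT and 975 and 4503 bp in 5XFAD microglia. The whole gene, 2608 bp long, lay inside this domain, and the 2 genotypes overlapped in width. Total cells listed 365 and 246 bp there in WT and 595 and 475 bp in 5XFAD.

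Il18bp, whose product binds and neutralises interleukin 18, had 2633 and 4031 bp in WT and 3298 and 4048 bp in 5XFAD microglia. Total cells had 840 and 525 bp in WT and 2891 and 577 bp in 5XFAD, so the wide total cell peak was in 5XFAD 1 alone. Synj2, an inositol phosphatase of membrane traffic, reached 4028 bp in WT 2 and 3998 bp in 5XFAD 2 but 1315 and 2075 bp in WT 1 and 5XFAD 1. This split by replicate number, broad in WT 2 and 5XFAD 2 alone, was found at 23 domains.

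Igf1r, the receptor for insulin-like growth factor 1, had widths of 1850 and 3071 bp in WT and 1620 and 4337 bp in 5XFAD microglia. Its domain (chr7:67971655-67975991) lay 21566 bp past the first listed start, and no total cell library listed a peak in it. Rap1gap2, which encodes a GTPase-activating protein for Rap1, had 1210, 2395, 2223 and 4221 bp in WT 1, WT 2, 5XFAD 1 and 5XFAD 2, and no total cell peak either. The domains near Nol4l (11457 bp away) and near Lmf1 (15296 bp away) reached 4235 and 4184 bp in 5XFAD 2 alone, and total cell peaks were listed there in 1 library each, the widest of 341 and 197 bp.

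The widest domains of all lay in mitochondrial DNA, which is not wrapped around histones. One of these, on the side of the gene for cytochrome b, had peaks of 5220, 5235, 5218 and 5234 bp in WT 1, WT 2, 5XFAD 1 and 5XFAD 2 microglia, and the other, on the ND1 side, 4853, 4862, 4797 and 4839 bp. In total cells the first had 2925 and 2924 bp in WT and 5219 and 5226 bp in 5XFAD, and the other 2758 and 2768 bp in WT and 4919 and 3290 bp in 5XFAD. Coverage differed less than these widths: it was 93.8% and 94.4% in WT and 99.4% and 99.3% in 5XFAD for the first, and 82.1% and 82.7% against 100% and 89.9% for the other. A further domain was the 18S ribosomal RNA repeat Rn18s-rs5 (chr17:39843145-39846663), where all 4 total cell libraries also had a broad peak, of 3226 to 3521 bp. These 3 multicopy places are counted among the 133, and results that turn on them are given below also for the other 130.

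By position, besides the 20 domains that held a start, 67 overlapped a coding gene that has a listed start outside the domain, 21 lay at a gene with no listed start and 22 were outside coding genes. In the group of 67 the domain midpoint was a median of 35.3 kb past the first listed start, and 55 were more than 10 kb past it. Their genes were long, with a median of 95.4 kb against 17.2 kb for all coding genes, and a longer gene also offers more room. Narrower regions were not sorted in this way, so these positions are not shown to be particular to the domains. The 22 outside coding genes were a median of 19.1 kb from the nearest, at 0.086 to 118 kb, and 8 of them overlapped another annotated gene. No miRNA hairpin lay in a domain. Exon, intron and UTR positions were not analysed here.

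Position at gene starts was tested within each microglia list, as the share of peaks whose midpoint was within 2 kb of a listed start, or of either end of a gene with no listed start. In WT 1, 6 of 13 broad peaks met this (46.2%, against 29.6% of narrower peaks), in WT 2 16 of 56 (28.6% against 27.0%), in 5XFAD 1 6 of 16 (37.5% against 28.4%) and in 5XFAD 2 23 of 111 (20.7% against 26.3%). The difference was 5.42 ± 9.53 percentage points (SD, n = 4 libraries; exact two-sided sign-flip permutation test, p = 0.375, where the smallest possible p is 0.125). It was above 0 in 3 of 4 libraries and less than the spread between them. Without mitochondrial DNA and the 18S repeat it was 0.743 points, at 10.4 and -0.548 in WT and 0.187 and -7.04 in 5XFAD. Then 4 of 10 broad peaks were at a start in WT 1 and 4 of 14 in 5XFAD 1. With all places kept, the difference was 1.71 points without microglia WT 1 and 9.08 points without microglia 5XFAD 2. The direction turned at a limit of 2000 bp, to -7.70 points, while a limit of 4000 bp gave 42.9 points. At 4000 bp the lists held only 3, 5, 2 and 11 peaks (WT 1, WT 2, 5XFAD 1 and 5XFAD 2), and 2 in each were mitochondrial.

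Grouped by their widest microglia peak, regions were most often centred at a gene start at intermediate width. The share was 18.8% below 500 bp, 31.3% from 1000 to 1499 bp, 20.4% from 2500 to 2999 bp and 23.3% in the domains. For the 130 domains outside mitochondrial DNA and the 18S repeat it was 22.3%.

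**Figure D4:**
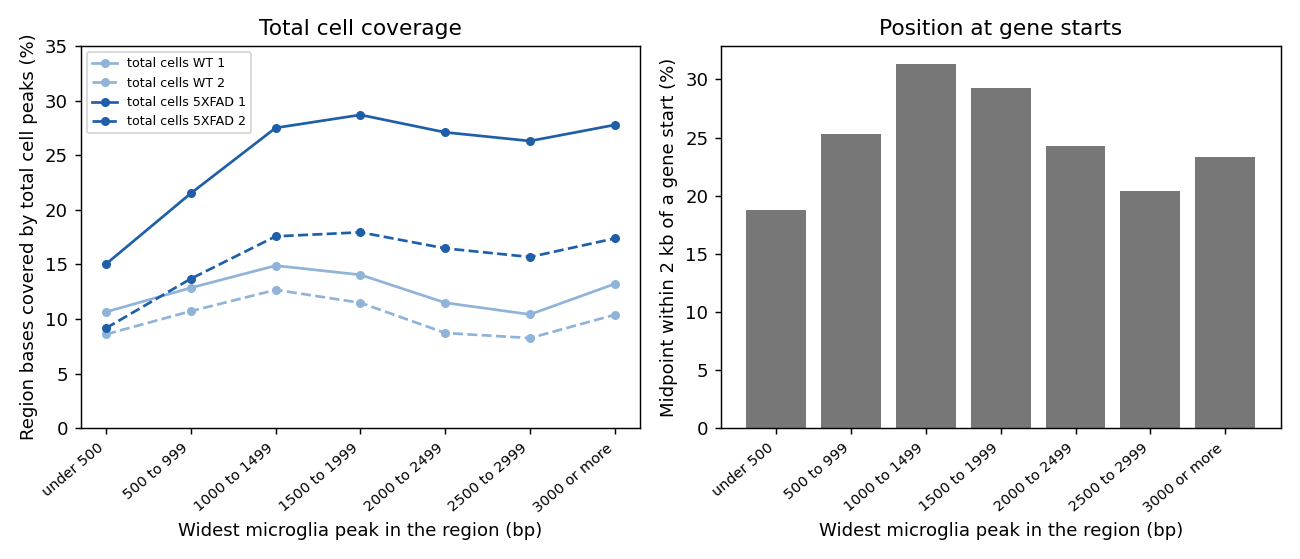
Left: share of region bases covered by total cell peaks (%), by the width of the widest microglia peak, for each of the 4 total cell libraries. Right: share of regions with their midpoint within 2 kb of a gene start (or either end of a gene with no listed start), which is highest at 1000 to 1499 bp (31.3%) and is 23.3% in the broad domains.

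Few genes of the lists compiled for brain cell types and microglial functions lay at a broad domain. Within 2 kb of a domain were 133 of 21896 coding genes (0.607%), a count that matches the number of domains by coincidence, and 5 of 410 list genes (1.22%), among them Ctsz, Olfml3, Pik3ap1 and Spi1. At such small counts the shares of single lists are not comparable. Microglia markers had 2 of 21 (Olfml3 and Spi1), the myeloid transcription factors 1 of 30 (Spi1), the disease-associated genes 1 of 25 and the lysosomal genes 1 of 22 (Ctsz in both). Src kinases and immunoreceptor signalling had 1 of 17 (Pik3ap1). Markers of neurons (15), astrocytes (10), oligodendrocytes (12), vascular cells (10) and other leukocytes (15) had none.

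Spi1 encodes PU.1, and its domain (chr2:91082119-91085325) had microglia peaks of 1284 and 3207 bp in WT and 2702 and 2928 bp in 5XFAD. It was thus broad in WT 2 alone, with 5XFAD 2 just under the limit, and total cells listed 249 and 501 bp in WT and 1049 and 273 bp in 5XFAD. Pik3ap1 encodes an adaptor that links immune receptors to PI3 kinase. Its domain had 950 and 2455 bp in WT and 1444 and 3143 bp in 5XFAD microglia, and no total cell peak.

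With the limit at 2000 bp, 1335 coding genes (6.10%) were at a wide peak, and the lists separated more. Microglia markers then had 10 of 21, among them C1qb, C1qc, Itgam, Gpr34 and P2ry13, and myeloid transcription factors 9 of 30, with Runx1, Ikzf1, Jun and Mef2a. Src kinases and immunoreceptor signalling had 5 of 17, the Toll-like receptor pathway 5 of 18, lysosomal genes 5 of 22, and complement and Fc receptors, the inflammasome and cytokines, and TGF-beta receptors and SMADs 4 each of 15, 17 and 17. Glycolysis and lactate genes had 4 of 24, ubiquitous genes 4 of 20, NF-kappa-B genes 3 of 19, histone acylation enzymes 3 of 19 and Alzheimer-associated genes 3 of 26. Disease-associated genes had 2 of 25, interferon response genes 2 of 20, and chemokines, antigen presentation and the phagocyte oxidase 1 each of 16, 14 and 7. Markers of neurons and other leukocytes, hypoxia response genes and genes of other tissues had none, and those of astrocytes, oligodendrocytes and vascular cells 1 each (Slc1a3, Mbp and Pecam1). These are counts from the lists that chose the domains, and they are not independent of gene length.

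In total cells, 124 of the 133 domains (93.2%) had a peak of some width in at least 1 of the 4 libraries, against 53.3% of all merged microglia regions. A peak in all 4 libraries was listed at 52 domains (39.1% against 15.0%). A wide region can be overlapped more easily. The share with any total cell peak was 32.7% for regions under 500 bp and 90.1% at 2500 to 2999 bp, next to the domains. The share with a peak in all 4 was 33.4% at 2500 to 2999 bp. By library, 78 and 63 domains had a peak in WT and 117 and 99 in 5XFAD. The 9 domains with none were those in Igf1r, Rap1gap2, Ebf3 and Foxn3 (both transcription factor genes), Ccdc85c, Pik3ap1 and Adgrg1, and those near Mgat4a and Lrrc28.

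Total cell peaks at the domains were short. Among domains with a peak, the widest one had a median of 474 and 404 bp in WT and 617 and 455 bp in 5XFAD total cells. The median width of all total cell peaks at domains was 404 ± 48.3 bp (SD, n = 4 libraries), against 371 ± 41.2 bp at narrower regions. The difference was 33.9 ± 12.5 bp and was above 0 in 4 of 4 libraries (exact two-sided sign-flip permutation test, p = 0.125, the smallest possible with 4 libraries, so the test cannot pass 0.05). Without mitochondrial DNA and the 18S repeat it was 24.8 bp, and without microglia 5XFAD 2, which leaves 62 domains, it was 90.4 bp.

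The share of bases covered in total cells did not differ between domains and narrower regions beyond the spread. It was 17.5% ± 7.73 at domains and 15.7% ± 5.69 at narrower regions (SD, n = 4). The difference was 1.74 ± 2.15 percentage points, and its values were 0.303 and -0.334 in WT and 4.31 and 2.68 in 5XFAD (exact two-sided sign-flip permutation test, p = 0.375). Without the 3 multicopy domains the sign turned, to -0.609 points. Without 5XFAD 2 of microglia, which leaves 62 domains, it was 5.995 points.

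**Figure D5:**
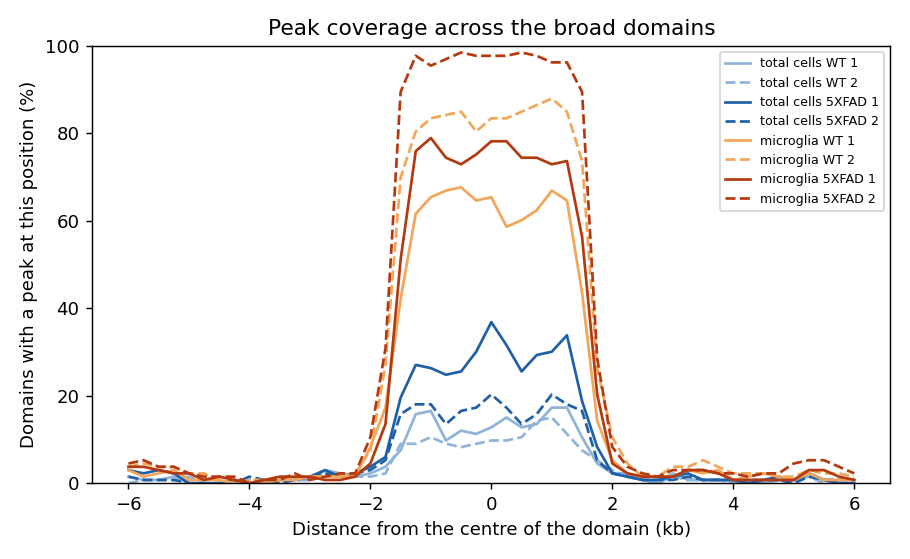
Share of the 133 domains with a peak at each distance from the domain centre (kb), by library. At the centre it is 65.4% to 97.7% in the 4 microglia libraries and 9.77% to 36.8% in the 4 total cell libraries, with 5XFAD 1 and 5XFAD 2 above both WT libraries.

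Between genotypes, the domains were more covered in the 5XFAD than in the WT total cell libraries. Coverage of domain bases was 13.5% and 10.6% in WT and 28.2% and 17.7% in 5XFAD, with no overlap. The means were 12.01% ± 2.05 and 22.96% ± 7.41 (SD, n = 2 each), a difference of 10.96 percentage points (exact two-sided permutation test, p = 0.333, the smallest possible with 2 against 2). At narrower regions the difference was 7.45 points, and the difference between these differences was 3.51 points (exact permutation test, p = 0.333). Most narrower regions are under 1000 bp wide: in those of 2500 to 2999 bp, coverage was 10.4% and 8.26% in WT and 26.3% and 15.7% in 5XFAD, a gap of about the size seen at the domains. With every list reduced to its 22300 highest-scoring peaks the difference at the domains was 9.51 points. Without 5XFAD 1 of total cells the difference at the domains was 5.72 points and without 5XFAD 2 it was 16.2 points.

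The same direction was seen domain by domain. Both 5XFAD libraries covered more than both WT libraries at 62 domains (46.6%, against 14.3% of all merged microglia regions), and the reverse held at 1 (0.752% against 3.46%), in the serine protease gene Htra3. Regions of nearly the same width were close to the domains in this: the first share was 42.1% at 2500 to 2999 bp and 39.4% at 2000 to 2499 bp. Both 5XFAD lists but no WT list held a peak at 18 domains (13.5% against 6.44%), among them Neurl3, Zc3h12d, Clec2i, Ptafr, Itpr3 and Cadm1. That share was 15.8% at regions of 2500 to 2999 bp and 16.2% at 2000 to 2499 bp, so the domains were not above regions of nearly their own width. The reverse was listed at 0 domains (background 1.26%).

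The largest single difference was in Arhgap18 (gene 73910, chr10:26797059-26800072), which encodes a GTPase-activating protein. Total cells listed widest peaks of 226 and 301 bp in WT and 2604 and 1924 bp in 5XFAD, and coverage was 7.50% and 17.6% against 86.4% and 63.8%. In microglia the peaks were 1124 and 2677 bp in WT and 2627 and 3014 bp in 5XFAD, so there only WT 1 stood apart. The next were Phf20, a chromatin reader gene, at 41.6 points, Parp14 at 39.2, the adhesion receptor gene Adgrl2 at 34.8, Il18bp at 30.4 and the inflammasome sensor gene Nlrp1a at 30.3. The domain of Nlrp1a went the other way in microglia, with 2595 and 3454 bp in WT and 1566 and 1753 bp in 5XFAD, while in total cells it had 206 and 438 bp in WT and 1629 and 784 bp in 5XFAD.

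The most covered domains in total cells, after mitochondrial DNA, the 18S repeat and Parp14, included that of Tnfrsf14 (chr4:154926681-154929849), a receptor of the tumour necrosis factor family whose start it held. Coverage there was 55.5% and 43.4% in WT and 74.0% and 67.3% in 5XFAD total cells. Its microglia peaks were 3062 and 2951 bp in WT and 2966 and 3075 bp in 5XFAD.

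Some other features of the lists differed between the genotypes, and some did not. The total cell lists covered 9.63 and 7.80 Mb in WT and 14.8 and 8.63 Mb in 5XFAD, and 5XFAD 2 had fewer peaks (22807) than WT 1 (25271) and covered less in all but more of the domain bases. The mean of the 5XFAD lists was 1.34 times that of WT over the whole lists, 1.62 times at all narrower regions, 2.15 times at those of 2000 to 2499 bp, 2.25 times at those of 2500 to 2999 bp and 1.91 times at the domains. With all domains kept, this ratio lay below that of the regions closest to them in width. Without mitochondrial DNA and the 18S repeat, the ratio at the other 130 domains was 2.15 times. That was level with the regions of 2000 to 2499 bp and only slightly below those of 2500 to 2999 bp. Of 21 microglia markers, 5 and 10 had a total cell peak in WT and 13 and 10 in 5XFAD, with C1qa, C1qb, C1qc, Aif1 and Siglech at 0 in all 4, and in the microglia lists 19 to 21 had one. Disease-associated genes had 9 and 8 of 25 in WT and 16 and 14 in 5XFAD, and complement and Fc receptor genes 2 and 2 of 15 against 5 and 5. Other lists did not separate the genotypes. Myeloid transcription factors had 22 and 19 of 30 in WT and 21 and 20 in 5XFAD. Lysosomal genes had 15 and 17 of 22 against 15 and 16, and interferon response genes 18 and 17 of 20 against 18 and 17. Neuron markers had 5 and 3 of 15 in WT and 6 and 4 in 5XFAD, and coding genes as a whole 46.9% and 44.8% against 52.0% and 44.7%. The part of these marker genes in the result was not tested, and in such mixtures more cells of a type and more mark per cell cannot be told apart.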

How the data were processed

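H4K12la CUT&Tag peak lists of 8 mouse brain libraries were used, 2 in each of 4 groups, as their titles give them. The tools named by the submitters' processing notes are Bowtie2, deepTools and fastp 0.19.6, and the build is GRCm38 (mm10). A peak caller is not given in the sources used here. As deposited by the authors there was 1 list per library with chromosome, start, end and a whole-number score of unstated unit; no score was below 20. The score served only to rank or filter peaks within a list. Read counts are not among the values, depth is therefore unknown, and a peak may be unlisted for want of reads.

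Starts were taken as counted from 0 and are printed from 1. Overlap was 1 base. Genes came from a RefSeq table of GRCm38.p6, and starts from RefSeq promoter sequences, which list 17491 of 21896 coding genes (79.9%); the other 4405 were represented by both ends. Python 3.11.15, numpy 2.4.6 and pandas 2.3.3 were used, and the overlap code gave 0 mismatches in 1291 checks on simulated data. The tests were exact permutation tests over libraries.

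The members and the 25 gene lists (411 genes, 410 matched; Ca9 was not) were chosen with earlier results of these data known. By rule the text names the 12 widest domains, those broad in all 4 microglia libraries, the 5 most covered in total cells, the 5 widest without a total cell peak, those broad in 1 genotype only, the 3 on each side of the limit, and list genes at a domain, of which 1 is not reported here. Alternatives changed the width limit, the score minimum, the list length, the overlap, the gene window and the libraries used.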

Additional observations from a re-analysis of the deposited data

How the results depend on the processing

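Read depth is unknown, only 2 libraries represent a group, and no test of total cells could pass 0.05. The width limit decides how many domains there are: 1776 at 2000 bp, 525 at 2500 bp, 12 at 4000 bp and 1 at 5000 bp, of which 134, 30, 2 and 1 were broad in all 4 microglia libraries. The 1 domain at 5000 bp lay in mitochondrial DNA. Leaving out each microglia library gave 62 (without 5XFAD 2) to 133 domains, and 7 to 11 (without WT 1) broad in all that remained.

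The share of domains with a total cell peak in at least 1 library was 83.3% at 4000 bp, 100% at 5000 bp, 75.9% with a score of at least 50 and 16.5% when the peaks had to cover 50% of the domain. The share with a peak in all 4 was 50%, 100%, 20.3% and 2.26% in the same order. Leaving out a library gave 82.0% (without total cells 5XFAD 1) to 95.2% for the first and 38.3% to 52.6% (without total cells WT 2) for the second, which was 37.7% without mitochondrial DNA and the 18S repeat.

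Domains minus narrower regions in coverage turned to -0.874 points with 22300 peaks from each list and to -0.609 points without mitochondrial DNA and the 18S repeat. Leaving out a library gave 0.883 to 5.995 points (without microglia 5XFAD 2). The share at gene starts turned to -7.70 points at 2000 bp and -6.59 points at 2500 bp, but was 42.9 points at 4000 bp and 72.2 points at 5000 bp. At 4000 bp, 2 of the 3, 5, 2 and 11 peaks per microglia list were mitochondrial, and at 5000 bp the only peak of each list was. When a library was left out, the share differed by 1.71 (without microglia WT 1) to 9.08 points (without microglia 5XFAD 2). The cause of these changes was not tested. The genotype difference in total cells kept its direction in 17 alternatives. The lowest value, 3.51 points, is what remained after subtracting the difference at narrower regions. The others ran from 5.24 points (5000 bp limit, 1 mitochondrial domain) to 16.2 points. The replicate block is among them, although its value is fixed by arithmetic. Leaving out a total cell library could not turn the direction either, since both 5XFAD libraries lay above both WT libraries. The difference in total cell peak width kept its direction in 15 alternatives, at 21.5 bp (2000 bp limit) to 117 bp (4000 bp limit). It was 3473 bp for the single domain of the 5000 bp limit, and 90.4 bp without microglia 5XFAD 2. Leaving out a total cell library could not turn this difference, since it was above 0 in every one of them. The alternatives that leave out mitochondrial DNA and the 18S repeat, use both ends of every gene or subtract narrower regions were added after seeing the data.

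With replicate number as a block, the genotype difference in total cells was 14.75 and 7.16 points within replicates 1 and 2. Their mean is 10.96 points by arithmetic, since each replicate number holds 1 library per genotype (exact permutation, p = 0.5, the smallest possible). The deviations of same-numbered total cell libraries correlated at 0.049 over regions. A correlation over regions does not see a shift common to all of them, so it cannot decide whether the numbers pair the libraries. Replicate 1 covered more domain bases than replicate 2 in both genotypes, at 13.5% against 10.6% in WT and 28.2% against 17.7% in 5XFAD total cells. In microglia the correlation was -0.153, and no paired test was made there.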
